A study of Rattus norvegicus with 6 samples.

Results

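Genes that encode the acid proteases, the proton pump and the membrane of the lysosome, and the machinery of autophagy, were examined in rat liver. They were taken by name alone: the cathepsins (Cts followed by 1 letter), the subunits of the vacuolar proton pump (Atp6v0 and Atp6v1), the lysosome-associated membrane proteins (Lamp1 to Lamp3) and the numbered autophagy genes (Atg). These rules found 60 of the 30957 genes in the table, namely 17 cathepsins, 9 V0 and 13 V1 subunits of the pump, 3 LAMP genes and 18 Atg genes. Of the 60 genes, 46 passed the filter on low counts and were tested among 12210 genes.

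The livers came from female Sprague Dawley rats bought at 3 weeks of age and kept under specific pathogen-free conditions. Every recipient first drank an antibiotic cocktail in 3 courses, which makes the rats pseudo germ-free rather than germ-free. The t-PBS recipients were then gavaged daily for 2 weeks with faecal microbiota of rats injected with PBS, and the t-DHEA recipients with that of rats injected with dehydroepiandrosterone (DHEA), an androgen precursor used to induce a polycystic ovary syndrome-like state. RNA was sequenced from 3 livers of each group, and the comparison asks how the donor microbiota relates to liver transcripts. Donor pellets were pooled, and the recipients were housed in pairs, so the rats of a group were not fully independent. The time of day of sampling was not given in the sources used here.

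The lysosome is the acidic compartment in which the cell degrades material taken up from outside or delivered by autophagy. Its acidity comes from the V-ATPase, in which the V1 part in the cytosol hydrolyses ATP and turns a rotor that drives protons through the V0 part in the membrane. Cathepsins are the proteases that work in this acid. LAMP proteins line the lysosomal membrane, and the Atg proteins build the autophagosome, a double membrane that closes around cytoplasm and fuses with the lysosome. The liver relies on this route to recycle protein, glycogen and lipid during fasting.

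Total counts on genes ran from 13031722 to 14316886 in t-PBS and from 12348511 to 13529414 in t-DHEA livers. Expression is given as CPM, the counts scaled to library size with TMM factors, where livers were compared, and as the authors' FPKM, which is per length, where genes were compared. Values are listed for rats 1, 2 and 3 of a group in that order. Hepatocyte markers summed to 130000 to 142000 CPM in t-PBS and 133000 to 158000 CPM in t-DHEA livers, and none was listed at 0, so the label of the tissue held. Alb held most of this sum, at 107000 to 138000 CPM. Tat was higher in every t-DHEA liver, at 481, 561 and 621 against 630, 1040 and 992 CPM, and the other hepatocyte markers overlapped between groups. Mesothelial markers summed to 29.0 to 36.5 CPM against 2.99 to 15.7 CPM, red cell markers to 250 to 391 against 417 to 827 CPM, and stellate cell markers to 596 to 766 against 494 to 578 CPM. Globins held most of the red cell sum, and Hbb, Alas2 and Slc4a1 (log2 fold change -0.11) overlapped between groups. Col3a1 held most of the stellate cell sum, at 379, 499 and 430 against 329, 286 and 376 CPM. Col1a1, Col3a1 and Lum were lower in every t-DHEA liver, while Lrat, Reln, Hgf, Des, Pdgfrb and Dcn overlapped. In bulk RNA, fewer cells of a type and less RNA per cell cannot be told apart.

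Many lysosomal genes carry the sequence TCACGTGA or its core CACGTG near their start, which is the kind of site that the transcription factor Tfeb binds. Promoters from 250 bases before to 50 bases after the start were available for 51 of the 60 genes (RefSeq, build GRCr8, while the counts use Rnor_6.0). CACGTG was in 8 of these 51 promoters (15.7%) and in 2148 of 33469 promoters in all (6.42%). TCACGTGA, which contains the core, was in 5 of 51 (9.8%) and in 260 of 33469 (0.777%). Both words read the same on either strand. A match describes the letters only. The stretches that hold TCACGTGA in the 5 genes are given below 5′ to 3′ on the strand of the gene, with the matches in capitals, because they come from each class but the V1 subunits.
Lamp1, chr16:83075084-83075258, minus strand: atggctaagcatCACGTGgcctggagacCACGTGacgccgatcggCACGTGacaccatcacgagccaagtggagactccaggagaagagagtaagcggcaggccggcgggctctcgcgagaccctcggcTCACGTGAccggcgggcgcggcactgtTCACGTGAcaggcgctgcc
Ctsd, chr1:206968822-206968990, minus strand: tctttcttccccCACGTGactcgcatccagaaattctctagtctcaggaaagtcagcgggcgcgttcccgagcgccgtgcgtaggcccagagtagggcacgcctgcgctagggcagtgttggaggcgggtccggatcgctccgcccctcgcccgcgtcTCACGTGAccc
Atp6v0d1, chr19:50357283-50357312, minus strand: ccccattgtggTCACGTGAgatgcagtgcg
Atp6v0e1, chr10:17007115-17007144, minus strand: tcgcgcgccggTCACGTGAgcctctgttga
Atg3, chr11:69159281-69159331, minus strand: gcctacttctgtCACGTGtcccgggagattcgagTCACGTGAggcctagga
Lamp1 held 5 copies of the core, and 2 of them were the longer word, at 66 to 59 and 39 to 32 bases before the start. Ctsd and Atg3 each held 2 copies of the core, of which 1 was the longer word. The match of Atp6v0e1 lay after the start, at bases 24 to 31. Ctsf, Atg14 and Atg5 held the core alone. None of the 10 V1 promoters available held either word, and Atp6v1b2, Atp6v1c1 and Atp6v1h were not among them.

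Differences in the lysosomal and autophagy transcripts between the groups were small. The study's criteria asked for a change of over 1.2-fold with an unadjusted p below 0.05, and they called 1 of the 46 genes (2.17%), the autophagy protease gene Atg4c, which rose in t-DHEA livers, whereas 4.95% of all tested genes (604 of 12210) were called. After Benjamini-Hochberg adjustment in edgeR 0 genes of the table stayed below 0.05. The lowest adjusted value was 0.242, and 634 genes were below 0.05 before adjustment. By DESeq2 24 genes and by edgeR's likelihood-ratio test 28 genes had an adjusted p below 0.05, with 0 of the 46 among them in either. Groups were fully apart for 6 of the 46 genes (13.0%), against 10.1% of all genes tested. The smallest two-sided p of an exact permutation test on 3 and 3 livers is 0.1. Ctss, Atp6v1e1, Atp6v1h, Atg4c and Atg4a were higher in every t-DHEA liver, and Atg4b was lower.

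Log2 fold changes of t-DHEA over t-PBS ran from -0.47 for Atp6v0d2 to 0.29 for Atg4c, with a median of 0.039 over the 46 genes and 0.001 over all genes tested. They were above 0 for 29 of the 46 (63.0%) and for 50.4% of all genes. The 95% interval of the fold change stayed within 1.5-fold in either direction for 43 of the 46 (93.5%) and for 62.4% of all genes tested. The other three, Ctsk, Ctse and Atp6v0d2, had means of at most a few CPM. The 46 genes also had a smaller median standard error (0.12) than all genes tested (0.15). These comparisons are not matched for level, since 39 of the 46 genes and 7150 of all 12210 had a mean of at least 10 CPM. Among genes with a mean of at least 10 CPM, the coefficient of variation over the 6 livers had a median of 8.58% for 39 of the lysosome and autophagy genes and 10.1% for all 7150 such genes.

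**Figure D1:**
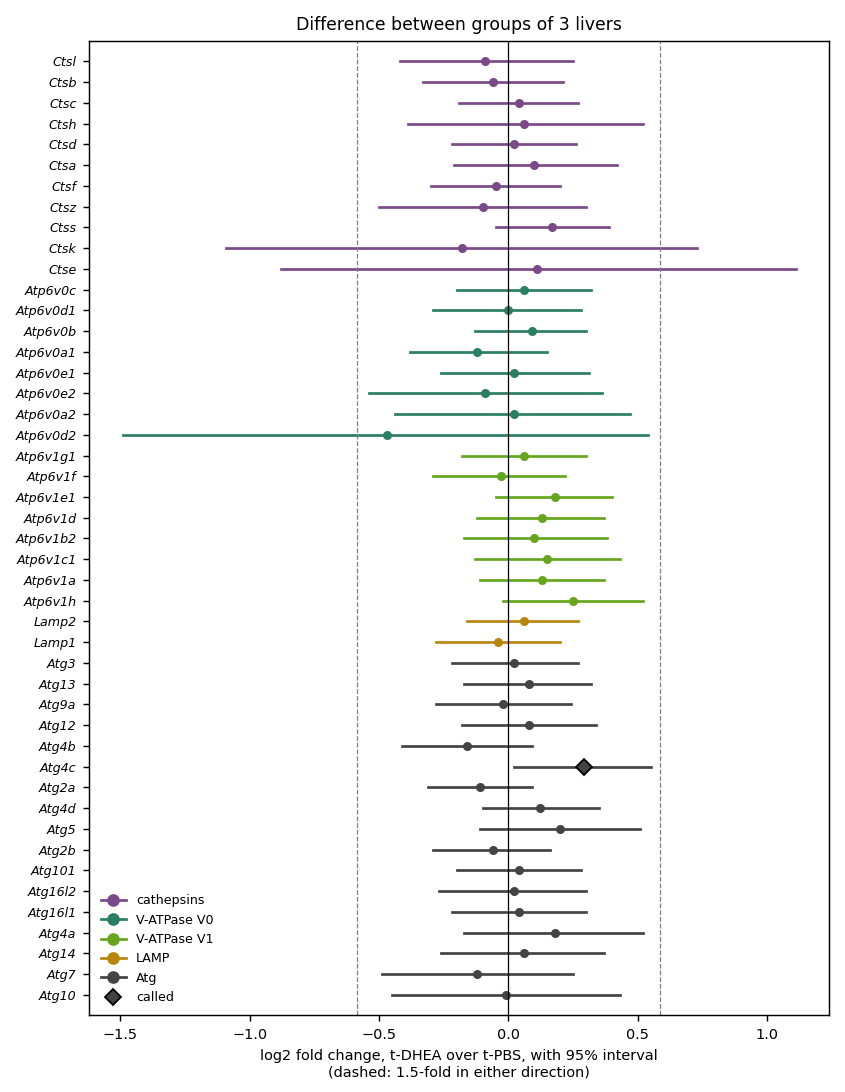
Log2 fold change of t-DHEA over t-PBS livers (x axis) for each of the 46 genes tested (rows, ordered by FPKM within a class), with its 95% interval from edgeR's quasi-likelihood fit on 3 livers per group. The diamond marks Atg4c at 0.29, and 43 of the 46 intervals lie between the dashed lines at 1.5-fold.

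Cathepsins made up the largest part of these transcripts per length. Their summed FPKM was 1400, 1290 and 1440 in t-PBS livers and 1280, 1310 and 1380 in t-DHEA livers. The LAMP genes summed to 366, 331 and 364 FPKM against 337, 345 and 358, and the V0 subunits to 290, 314 and 290 against 252, 315 and 319. V1 subunits summed to 242, 241 and 262 FPKM against 243, 257 and 271, and the Atg genes to 179, 192 and 185 against 180, 188 and 189. The groups overlapped for each of these 5 sums, and the ratio of the group means lay between 0.961 for the cathepsins and 1.03 for V1. The t-DHEA 1 liver had the lowest V0 sum.

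**Figure D2:**
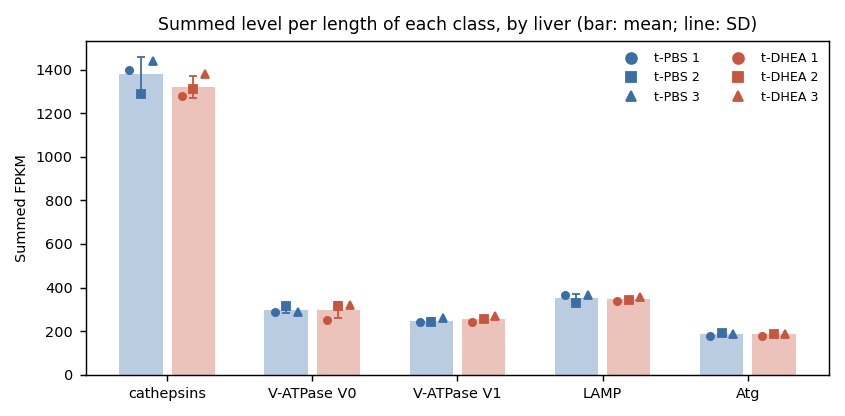
Summed FPKM (y axis) of the cathepsins, V0 and V1 subunits, LAMP and Atg genes in t-PBS (blue) and t-DHEA (red) livers, with a bar for the mean of 3 livers, a line for the SD and a symbol for each liver. The cathepsins sum to 1280 to 1440 FPKM in each liver and the Atg genes to 179 to 192 FPKM, and the groups overlap in every class.

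**Figure D3:**
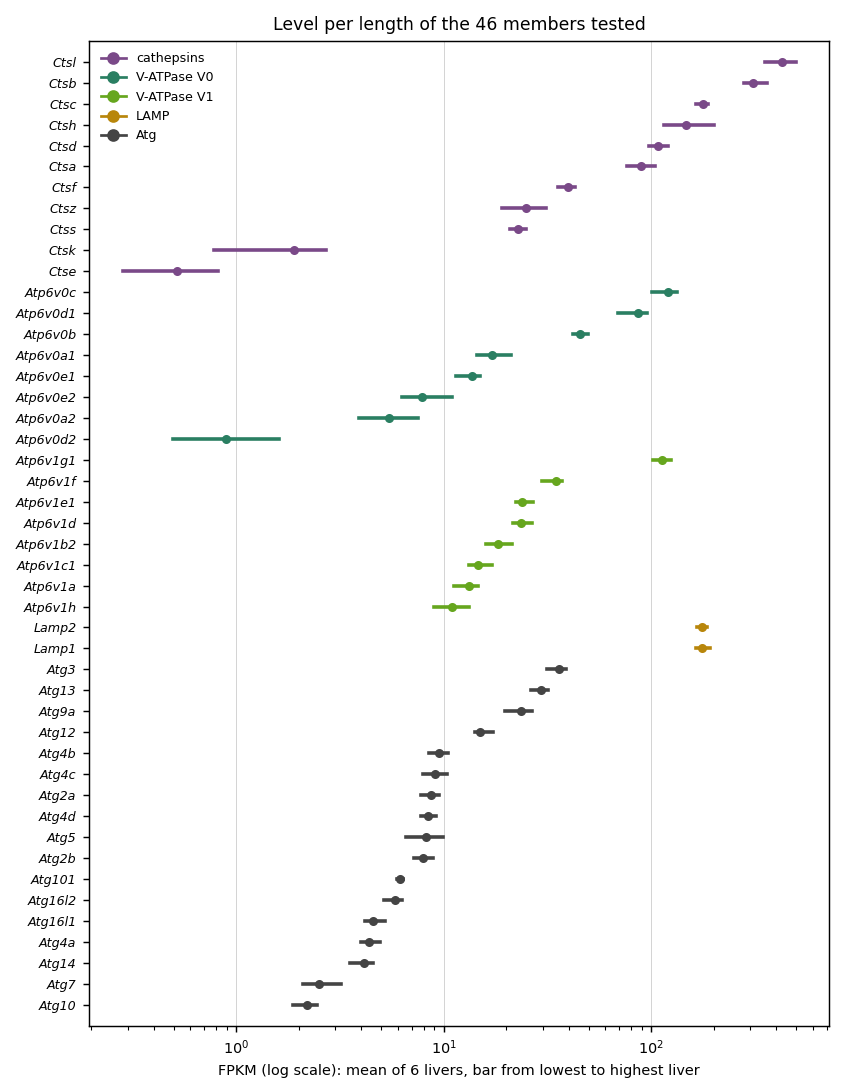
Level per length of the 46 genes tested (rows) as FPKM on a log x axis, with the mean of 6 livers as a point and a bar from the lowest to the highest liver. The means run from 428 FPKM for Ctsl to 0.517 FPKM for Ctse.

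Most of the protease transcripts came from a few genes. The cysteine cathepsins Ctsl, Ctsb, Ctsc and Ctsh and the aspartic protease Ctsd together held 85.4% to 87.2% of the cathepsin FPKM in each liver. Ctsl (ENSRNOG00000018566, chromosome 17 of Rnor_6.0, 1872848 to 1879279), an endopeptidase of the lysosome, led with a mean of 428 FPKM and 27.2% to 35.4% of the cathepsin FPKM. Its expression was 819, 594 and 762 CPM in t-PBS and 743, 591 and 714 CPM in t-DHEA livers, so rat 2 was lowest in both groups (log2 fold change -0.09, interval -0.42 to 0.25). Ctsb, which cleaves proteins and also removes dipeptides from their ends, had a mean of 309 FPKM. Its range of 281 to 360 FPKM touched that of Ctsl, 355 to 497, but only between different livers. Ctsb held 20.8% to 25.1% of the cathepsin FPKM, less than Ctsl in each liver. Ctsb had 570, 571 and 699 CPM in t-PBS and 557, 580 and 628 CPM in t-DHEA livers. The groups overlapped for both.

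Ctsc, the dipeptidyl peptidase that activates serine proteases of leukocyte granules, had 334, 295 and 352 CPM in t-PBS and 341, 323 and 345 CPM in t-DHEA livers. Its log2 fold change of 0.04 had an interval of -0.19 to 0.27. Ctsh, an aminopeptidase, varied most among the cathepsins above 10 CPM, with 371, 354 and 300 CPM against 277, 484 and 310 CPM. Both the highest and the lowest value of Ctsh were t-DHEA livers, 1.75-fold apart, and its coefficient of variation of 21.3% was the highest of the 39 genes. Ctsf, another cysteine cathepsin, had 65.6 to 80.5 CPM in t-PBS and 67.3 to 76.6 CPM in t-DHEA livers. Ctsz, a carboxypeptidase, had 37.3, 32.2 and 34.9 CPM against 28.7, 26.2 and 42.6 CPM. For Ctsz the t-DHEA 3 liver was the highest of all and the other two t-DHEA livers were the lowest (log2 fold change -0.10, interval -0.50 to 0.30). Without the t-DHEA 3 liver Ctsz met the criteria as lower, at -0.34 on the log2 scale (unadjusted p = 0.024, edgeR).

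The aspartic protease Ctsd, the main one of the lysosome, had 198, 232 and 222 CPM in t-PBS and 203, 223 and 237 CPM in t-DHEA livers, and the fold change was close to none (0.02, interval -0.22 to 0.26). Ctsa, a serine carboxypeptidase that also protects neuraminidase and beta-galactosidase, had 204, 167 and 217 CPM against 179, 214 and 238 CPM. It overlaps Pltp by 157 bases and Neurl2 by 63 bases, which leaves a small part of its counts uncertain. Ctse and Ctsk were near the limit of this depth. Ctsk, best known from osteoclasts, had 1.12 to 3.69 CPM and a log2 fold change of -0.18 with an interval of -1.09 to 0.73. Ctse, an aspartic protease of the stomach and of immune cells, had 0.811 to 2.48 CPM and an interval of -0.88 to 1.11. Fold changes over 1.5 in either direction were thus left possible for both genes.

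Ctss (ENSRNOG00000021157, chromosome 2, 197655786 to 197679458) was the cathepsin with the lowest p. This protease processes the invariant chain of MHC class II in antigen-presenting cells. It had 21.0, 22.5 and 20.6 CPM in t-PBS livers (21.4 ± 1.0, SD, n = 3) and 23.5, 25.1 and 23.4 CPM in t-DHEA livers (24.0 ± 0.921). Every t-DHEA liver was above every t-PBS liver, but the log2 fold change of 0.17 (SE 0.10, interval -0.05 to 0.39) did not pass the test (unadjusted p = 0.115, adjusted p = 0.986 in edgeR). Kupffer cell and macrophage markers summed to 851, 740 and 931 CPM in t-PBS and 878, 799 and 1090 CPM in t-DHEA livers. Of these 12 markers 11 were tested, 10 had a log2 fold change above 0, 0 were called and none was listed at 0. Dendritic cell markers summed to 17.4, 17.0 and 14.3 CPM in t-PBS and 14.1, 11.4 and 13.3 CPM in t-DHEA livers, with 6 of 6 tested below 0 and Cd83 called lower (log2 fold change -0.50, unadjusted p = 0.0157 in edgeR), and none was listed at 0. The part of either cell type in the values of Ctss was not tested.

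Cathepsins best known from other tissues were listed at or near 0. Ctsg, a neutrophil granule protease, and Ctsj, Ctsm, Ctsq and Ctsr, which are placental in rodents, were listed at 0 in all 6 livers. The limit that a 0 allows is 3 counts, which was 0.21 CPM in the deepest and 0.248 CPM in the shallowest library and covers counting error only. The rows for Rps6, Rpl8 and Hprt1, which every cell uses, were also at 0 in all livers, so a 0 can come from the counting. Of 8 neutrophil markers, Mpo and Prtn3 were at 0 in all livers, while Lcn2 had 385 counts, S100a9 81 and S100a8 20 over the 6 livers. Ctsw, a cathepsin of cytotoxic lymphocytes, had 7, 13 and 5 counts in t-PBS and 16, 6 and 9 counts in t-DHEA livers and was not tested.

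For most subunits of the proton pump, transcripts of the widely expressed isoform prevailed. Within V0, Atp6v0c, which encodes the proton-carrying c subunit of the rotor ring, led with a mean of 121 FPKM. Atp6v0d1, the link between rotor and stalk, had 85.9 FPKM and Atp6v0b, the variant c subunit of the ring, 45.3 FPKM. The levels of the V0 genes tested went down to 0.892 FPKM. Of the a subunit, which holds the proton channels and directs the pump to a membrane, Atp6v0a1 gave 73.4% to 80.5% of the FPKM of the 3 Atp6v0a genes, Atp6v0a2 19.2% to 26.3% and the kidney form Atp6v0a4 0.202% to 0.393%. Tcirg1, the a3 form, falls outside the name rule and held 29.4% to 43.1% of the a subunit FPKM when it was added. For the d subunit, Atp6v0d1 gave 98.1% to 99.5%, and Atp6v0d2, the form of osteoclasts, the rest. For the small e subunit, Atp6v0e1 gave 53.9% to 69.1% and Atp6v0e2 30.9% to 46.1%.

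In V1 a single gene stood for each subunit that has several. Atp6v1b2 gave 100% of the B subunit, since Atp6v1b1 of the kidney was listed at 0 in all livers. Such a 0 can come from the counting, so this share describes the listed counts only. Atp6v1c1 gave 97.0% to 99.4% of C, Atp6v1e1 99.3% to 100% of E and Atp6v1g1 99.9% to 100% of G. Counts of the rare forms were few, with 5, 9 and 4 against 2, 6 and 12 for Atp6v1c2, and 5, 5 and 3 against 2, 5 and 3 for Atp6v0a4. Atp6v1e2 had 2 counts, all in t-PBS 3, Atp6v1g3 had 2, all in t-PBS 1, and Atp6v1g2 had 1, in t-DHEA 2. Atp6v1g2 lies over Nfkbil1 and MHC class I genes, and Atp6v0a4 over Tmem213, which had 0 counts. The isoform shares of both groups overlapped throughout.

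**Figure D4:**
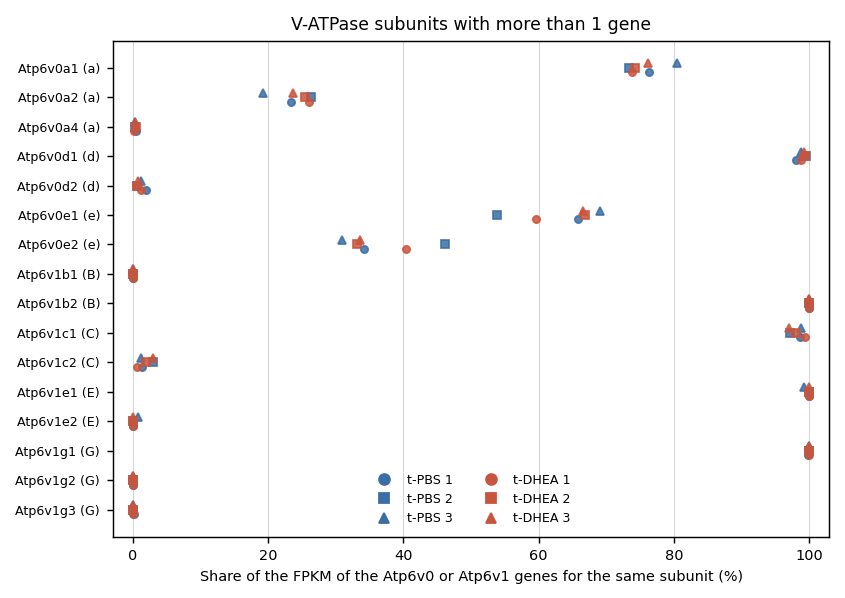
Share of each gene (rows, subunit in brackets) in the FPKM of the Atp6v0 or Atp6v1 genes for the same subunit, in percent and without Tcirg1 (x axis), with a symbol for each t-PBS (blue) and t-DHEA (red) liver. Subunits d, B, C, E and G come from 1 gene at 97.0% or more, while a and e come from more than 1.

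Differences in V0 were small and had no common sign. The median log2 fold change of the 8 V0 genes tested was 0.006, with 4 above and 4 below 0, and 0 were called. Atp6v0c had 135, 134 and 139 CPM in t-PBS and 119, 155 and 151 CPM in t-DHEA livers (log2 fold change 0.06, interval -0.20 to 0.32). Atp6v0d1 had 133, 143 and 132 CPM against 111, 144 and 152 CPM. In both genes t-PBS livers were close together and the t-DHEA 1 liver lay below all others. That liver was the lowest of the 6 for 5 of the 8 V0 genes, and without it the V0 median was 0.085. Atp6v0b had the highest fold change of the class, 0.09, with 43.7, 44.6 and 44.1 CPM against 43.2, 47.5 and 50.1 CPM. Atp6v0a1 had 91.5, 111 and 89.7 CPM against 81.3, 96.3 and 92.5 CPM (log2 fold change -0.12, interval -0.38 to 0.15). Atp6v0a2 was the least steady of V0 above 10 CPM, with 36.1, 51.4 and 27.6 CPM in t-PBS and 36.9, 42.6 and 36.8 CPM in t-DHEA livers. Its extremes, 1.86-fold apart, were both t-PBS livers. Atp6v0e1 had 33.2 to 42.8 CPM and Atp6v0e2 5.43 to 9.0 CPM over the 6 livers. Atp6v0d2 had 2.24, 0.664 and 1.43 CPM against 1.24, 0.823 and 1.08 CPM, and its log2 fold change of -0.47 had an interval of -1.49 to 0.54.

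Fold changes of the V1 genes lay mostly above 0, though 0 of the 8 were called. Their median log2 fold change was 0.131, and 7 of the 8 tested were above 0, Atp6v1f of the rotor stalk being at -0.03. Genes of 1 class share livers and scaling, so this count is a description and has no test. The t-DHEA 3 liver was the highest of the 6 for 5 of the 8 V1 genes, and without it the median was 0.093. Atp6v1h (ENSRNOG00000030862, chromosome 5, 14262349 to 14367898), the regulatory H subunit that couples ATP hydrolysis to proton flow, had the lowest p of the pump. It had 20.7, 23.8 and 24.6 CPM in t-PBS (23.0 ± 2.08, SD, n = 3) and 25.7, 25.7 and 30.7 CPM in t-DHEA livers (27.3 ± 2.89). The log2 fold change was 0.25 (SE 0.12, interval -0.02 to 0.52, unadjusted p = 0.0689, adjusted p = 0.969). The groups were apart, with t-DHEA 3 well above the rest.

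Atp6v1e1 (ENSRNOG00000011905, chromosome 4, 153351421 to 153373649), of the outer stalk, had 30.1, 29.3 and 29.5 CPM in t-PBS and 32.0, 32.1 and 36.3 CPM in t-DHEA livers. The t-PBS livers differed by less than 1 CPM and each t-DHEA liver was above them, with a log2 fold change of 0.18 (interval -0.05 to 0.40, unadjusted p = 0.110). Atp6v1a, the catalytic subunit, had 45.9, 57.4 and 50.7 CPM against 54.3, 58.7 and 55.9 CPM (0.13, unadjusted p = 0.242). Its partner Atp6v1b2 had 43.2, 49.0 and 51.2 CPM against 58.9, 46.3 and 48.9 CPM, and t-DHEA 1 alone lay above the t-PBS range. Atp6v1c1, the C subunit that leaves the pump when it disassembles, had 24.8, 22.0 and 25.8 CPM against 26.7, 23.7 and 30.2 CPM. Atp6v1d, of the rotor stalk, had 30.2, 28.8 and 28.5 CPM against 28.4, 32.5 and 34.7 CPM. The groups overlapped for each of these genes. Atp6v1g1, with 113 FPKM the most abundant V1 gene per length, had 120, 105 and 133 CPM against 118, 128 and 128 CPM. Atp6v1f, the next at 34.7 FPKM, had 21.8 to 23.8 CPM against 19.5 to 24.2 CPM.

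The 2 LAMP genes were at the same level per length, 176 FPKM for Lamp2 and 175 FPKM for Lamp1, and Lamp1 made up 47.8% to 52.4% of their sum. Lamp1 (chromosome 16, 81689590 to 81706561 in Rnor_6.0), whose promoter held the most copies of CACGTG, had 362, 317 and 379 CPM in t-PBS and 334, 333 and 364 CPM in t-DHEA livers. Its log2 fold change of -0.04 had an interval of -0.28 to 0.20. Lamp2, which is also the receptor of chaperone-mediated autophagy in its A form, had 324, 278 and 302 CPM against 308, 319 and 312 CPM, and a log2 fold change of 0.06 (interval -0.16 to 0.27). The t-DHEA livers of both genes lay inside the t-PBS range. Lamp3, of mature dendritic cells, had 1 count, in t-DHEA 2.

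The leading Atg genes had lower levels per length than the leading genes of the other classes. Atg3, the enzyme that joins LC3 to lipid, led with 35.9 FPKM, followed by Atg13, a scaffold of the initiating kinase, with 29.3 FPKM and Atg9a, the membrane protein of the vesicles that seed the autophagosome, with 23.5 FPKM. Atg7, which activates both ubiquitin-like proteins of the pathway, was second lowest at 2.51 FPKM, and Atg10, which joins Atg12 to Atg5, lowest at 2.20 FPKM among those tested. Atg2a made up 49.2% to 54.9% of the Atg2 genes, which encode the lipid transfer proteins, and Atg16l1 40.8% to 46.6% of the Atg16-like genes. The median log2 fold change of the 17 Atg genes tested was 0.037, with 11 above 0 and 6 below.

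The groups overlapped for the initiation and membrane supply genes, as they did for all but 10.1% of the genes tested. Atg13 had 40.8, 43.7 and 38.6 CPM in t-PBS and 38.6, 45.9 and 45.5 CPM in t-DHEA livers, and Atg101, which stabilises Atg13, was the steadiest of the 39 genes with 13.3 to 14.9 CPM over the 6 livers. Atg9a had 94.4, 96.6 and 98.4 CPM against 82.6, 110 and 92.9 CPM, so the t-DHEA livers lay on both sides of a narrow t-PBS range. Atg2a had 58.8, 57.9 and 54.5 CPM against 50.0, 54.6 and 53.8 CPM (log2 fold change -0.11, unadjusted p = 0.240). Atg2b had 72.3 to 85.7 CPM against 70.5 to 78.8 CPM. All 3 membrane supply genes tested had a fold change below 0, with a median of -0.064 on the log2 scale, and 0 were called. Atg9b had 3 counts, all in t-PBS 3, and overlaps Nos3 by 362 bases. Atg14, the subunit that brings the lipid kinase to autophagosome sites, had 12.9 to 15.5 CPM against 12.4 to 16.1 CPM.

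The 7 conjugation genes also overlapped between groups. Atg3 had 48.4, 48.7 and 51.8 CPM in t-PBS and 52.3, 44.1 and 54.9 CPM in t-DHEA livers, and Atg12, the ubiquitin-like protein joined to Atg5, had 36.4, 35.3 and 41.0 CPM against 37.8, 44.6 and 36.6 CPM. Atg5 had 14.2, 17.6 and 17.7 CPM against 18.6, 21.5 and 16.8 CPM, and the third t-DHEA liver lay inside the t-PBS range (log2 fold change 0.20, interval -0.11 to 0.51, unadjusted p = 0.176). Atg7 had 7.02 to 9.29 CPM against 6.44 to 7.80 CPM and Atg10 3.36 to 3.61 against 3.06 to 3.94 CPM. Atg16l1 had 19.8 to 21.5 CPM against 19.5 to 24.4 CPM, and Atg16l2 11.3 to 12.7 against 10.9 to 13.4 CPM. Annotated small RNA genes overlap Atg16l1 and held 13 and 15 counts against its 1672.

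The Atg4 proteases include Atg4c, the gene called. The t-PBS and t-DHEA livers did not overlap for 3 of the 4 Atg4 genes, against 10.1% of all genes tested, and 4 genes are too few to read this share as particular to the family. These enzymes trim the LC3 and GABARAP precursors so that they can be joined to lipid, and later release them from the membrane, and Atg4b is the most active of them. Atg4c (ENSRNOG00000008767, chromosome 5, 117877594 to 117931003) had 10.9, 11.1 and 11.6 CPM in t-PBS livers (11.2 ± 0.367, SD, n = 3) and 14.4, 12.5 and 14.1 CPM in t-DHEA livers (13.7 ± 1.04). These rested on 156, 150 and 154 counts against 175, 167 and 182. Every t-DHEA liver was above every t-PBS liver, and the log2 fold change was 0.29 (SE 0.12, interval 0.02 to 0.55). Its unadjusted p was 0.0367 and its adjusted p 0.957 in edgeR's quasi-likelihood test, so the rise met the criteria of the study but did not pass adjustment over all genes. It lost the call when any liver other than t-DHEA 2 was left out, with log2 fold changes from 0.24 to 0.31, and kept it at 0.35 without t-DHEA 2. Under DESeq2 its unadjusted p was 0.122.

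Atg4b (ENSRNOG00000018403, chromosome 9, 100888501 to 100918637) had 15.2, 14.7 and 14.0 CPM in t-PBS and 14.0, 12.5 and 12.9 CPM in t-DHEA livers. The groups were separated by less than the digits printed, and the log2 fold change of -0.16 (SE 0.11, interval -0.41 to 0.09) did not pass the test (unadjusted p = 0.186). Atg4a (ENSRNOG00000050960, chromosome X, 112358748 to 112402262) had 4.91, 5.16 and 4.98 CPM against 5.37, 6.13 and 5.48 CPM, with a log2 fold change of 0.18 and an unadjusted p of 0.279. Atg4d (ENSRNOG00000047625, chromosome 8, 22291445 to 22301331) had 22.6, 24.6 and 22.9 CPM against 25.3, 26.9 and 24.3 CPM, and only t-PBS 2 and t-DHEA 3 overlapped. The mix of the family differed in the same sense. Atg4b held 34.5%, 32.6% and 31.9% of the Atg4 FPKM in t-PBS and 28.8%, 26.8% and 27.7% in t-DHEA livers, and Atg4c 26.4%, 26.2% and 28.2% against 31.8%, 28.5% and 32.1%. Neither share overlapped between groups. The shares are computed from the same counts as the levels just given, so they are no separate result, and no test was added. The shares of Atg4a, 13.2% to 15.6%, and Atg4d, 25.8% to 29.0%, overlapped. The summed FPKM of the family was 30.1, 32.1 and 30.1 against 32.6, 31.6 and 31.7.

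**Figure D5:**
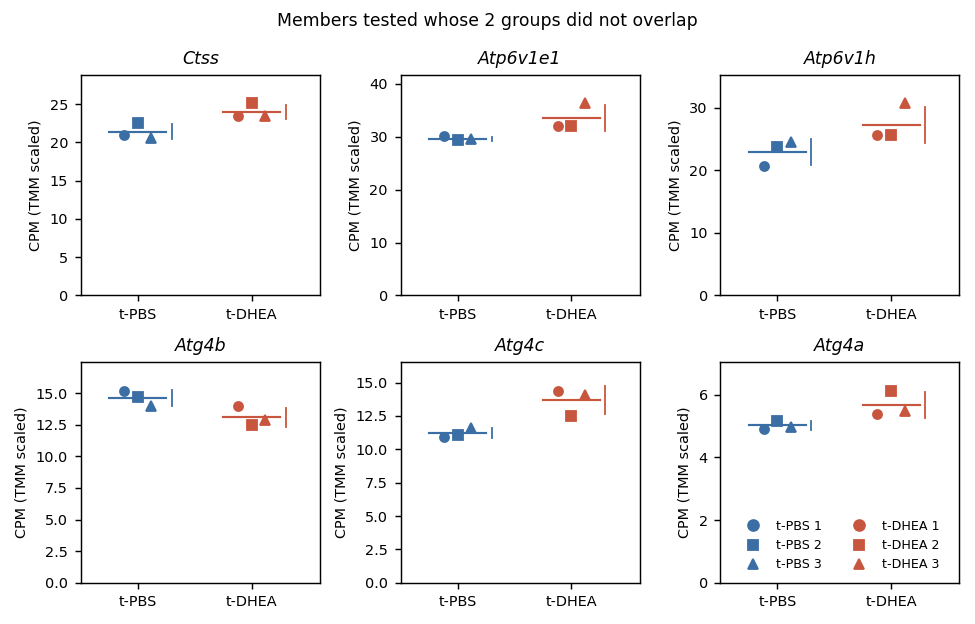
Expression of the 6 genes whose groups did not overlap, in CPM (y axis, from 0), with a symbol for each liver, a horizontal line for the mean of 3 livers and a vertical line for the SD. Only Atg4c, at 11.2 against 13.7 CPM, met the criteria, and Atg4b is the one gene lower in t-DHEA livers.

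Genes outside the name rule but in the same pathways were examined as lists. Of all genes tested 4.95% were called, a share that gives few calls in lists of this size. Of the V-ATPase partners 0 of 15 tested were called (median log2 fold change 0.107), the lowest p being 0.196 for Dmxl1, a pump assembly factor, with Tcirg1 next at 40.6, 35.8 and 45.3 CPM against 47.4, 41.4 and 45.2 CPM. In the list of cystatin superfamily genes and cathepsin inhibitors 0 of 6 genes tested were called. Fetub, a plasma protein of the cystatin superfamily, had the lowest p (0.194) at 2350, 2990 and 4050 CPM against 2690, 2780 and 2280 CPM, and cystatin C (Cst3) had 105, 99.7 and 94.7 CPM against 86.7, 94.1 and 96.5 CPM.

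Of 30 lysosomal membrane and sorting genes 1 was called, Sidt2, a lysosomal membrane protein, with 292, 265 and 252 CPM in t-PBS and 156, 189 and 163 CPM in t-DHEA livers. Its log2 fold change of -0.67 had an unadjusted p of 0.000191 and an adjusted p of 0.584 in edgeR. Sidt2 overlaps the smooth muscle gene Tagln by 1019 bases, and Tagln had a log2 fold change of 1.06, so the counts of both are uncertain. Igf2r, the sorting receptor for lysosomal enzymes, was higher in every t-DHEA liver at 59.4, 61.4 and 58.9 against 72.5, 64.5 and 67.8 CPM (0.19, unadjusted p = 0.0597). In this list the groups were apart for 3 genes higher and 1 gene lower in t-DHEA livers, while 10.1% of all genes tested were apart.

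Of 34 genes of lysosome transcription and mTORC1 control 2 were called, beside 4.95% of all genes tested. Lamtor4, of the Ragulator complex that holds mTORC1 at the lysosome, had 30.6, 32.5 and 32.8 CPM against 39.5, 55.3 and 38.3 CPM. Its log2 fold change was 0.47 (unadjusted p = 0.0112, adjusted p = 0.838 in edgeR). The t-DHEA 2 liver was far above the rest, and Lamtor4 shares 3716 bases with RGD1305455. Prkaa1, a catalytic subunit of the energy sensor AMPK, had 25.9, 23.3 and 23.9 CPM against 21.9, 17.7 and 20.6 CPM. Its log2 fold change was -0.28 (unadjusted p = 0.0354, adjusted p = 0.957 in edgeR). In this list the groups were apart for 1 gene higher and 5 genes lower in t-DHEA livers, while 10.1% of all genes tested were apart. The 5 were Tfe3, Tfec, Akt1s1, Flcn and Prkaa1, of which only Prkaa1 was called. The others had unadjusted p of 0.286, 0.0886, 0.165 and 0.123 in edgeR, in that order. Fold changes over the list were above 0 for 16 genes and below 0 for 18. Tfeb itself had 6.94, 6.56 and 8.15 CPM against 6.61, 8.83 and 7.88 CPM. In the autophagy machinery without Atg names 0 of 26 genes were called, with the lowest p of 0.104 for the lipid kinase Pik3c3 at 16.5, 16.3 and 18.5 against 19.7, 19.1 and 19.5 CPM. Of the autophagy receptors 0 of 13 were called. The lowest p were those of the mitochondrial receptors Fundc1 (0.22), higher in every t-DHEA liver at 7.36, 8.92 and 8.45 against 9.33, 9.58 and 9.04 CPM, and Phb2 (0.245), at 189, 176 and 159 against 145, 181 and 148 CPM. Sqstm1 (p62) had 437, 538 and 652 CPM against 570, 524 and 668 CPM. RNA levels do not measure autophagic flux, acidity or protease activity, which were not analysed here.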

How the data were processed

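Paired-end TruSeq libraries were made from liver RNA of 3 t-PBS and 3 t-DHEA rats. The authors filtered the reads, mapped them with HISAT2 2.0.4 to Rnor_6.0 and counted fragments per gene with StringTie 1.3.0, and deposited the counts without normalization. The authors also gave FPKM values, which are the same counts divided by gene length and library total. The annotation release and strandedness were not given in the sources used here, so overlapping and antisense genes are uncertain.

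Counts were analysed with edgeR 4.0.16 in R 4.3.3 after TMM scaling and its default filter. The quasi-likelihood test compared the groups over all genes without covariates, and had been checked on simulated data. Tests were two-sided. The call needed a fold-change above 1.2 together with an unadjusted p below 0.05, the criteria of the study, whose methods name FPKM as the input of edgeR. Adjusted p-values are Benjamini-Hochberg values over the 12210 genes tested. Intervals are 95% intervals of the log2 fold change. No library was a duplicate of another in its group: the lowest chi-square per degree of freedom between livers of a group was 17.9. Sampling noise alone gives about 1, and pairs across the groups were not checked. The p-values measure the spread between these rats only.

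The genes, classes, pathway lists and cell markers were chosen with earlier results of these data known. Of 255 list entries 244 matched by name, 3 by an older symbol and 8 not. Genes named were those called, and in each class the 3 of highest FPKM, the extremes of fold change, the 3 of lowest p and those below the filter, and in each pathway list those called and up to 2 of the lowest p. Other genes were named after their values were seen. Of the 60 genes 6 were at 0 in every liver and 8 were below the filter with some counts. A motif search in protein sequences had been planned and was not run. The list of lysosomal hydrolases other than cathepsins is not reported here.

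Dendritic cell markers summed to 14.3 to 17.4 CPM in t-PBS and 11.4 to 14.1 CPM in t-DHEA livers, T and NK cell markers to 14.1 to 16.8 and 12.5 to 15.8, and endothelial markers to 236 to 356 and 312 to 325. Neutrophil markers summed to 5.51 to 9.67 and 3.82 to 5.7. Lcn2, lower in every t-DHEA liver (log2 fold change -1.07), held most of that sum in each liver. S100a9 (0.94) and S100a8 went the other way and were higher in every t-DHEA liver, on 81 and 20 counts. Alternatives were DESeq2 1.42.0 and its size factors, the likelihood-ratio test, no TMM, other filters and fold-changes, limma 3.58.1 on log2(FPKM + 0.1) and log2(FPKM + 1), rat number as a block, and each liver left out in turn.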

Additional observations from a re-analysis of the deposited data

How the results depend on the processing

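The number of the 46 genes called was 1 with DESeq2 size factors, with at least 10 counts in every liver, without a filter and without a fold-change threshold. It was 0 with DESeq2, the likelihood-ratio test, library size without TMM, limma on log2(FPKM + 0.1) and on log2(FPKM + 1), and a fold-change above 1.5, and 0 to 1 with each liver left out. Without t-DHEA 2 the call was Atg4c, and without t-DHEA 3 it was Ctsz. The unadjusted p of Atg4c was 0.0567 with the likelihood-ratio test, 0.064 without TMM, and 0.0455 and 0.0463 in limma, where its log2 fold change of 0.24 and 0.22 was under the fold-change criterion. Over all genes, 275 were called at a fold-change above 1.5 and 414 to 776 under the other alternatives. The median log2 fold change of the Atg genes was -5.6e-05 without TMM and -0.002 and -0.001 in limma, where the median of all genes was -0.037, -0.037 and -0.029, and 0.001 to 0.051 with each liver left out. That of the V-ATPase genes was 0.017 to 0.123 with each liver left out, highest without t-DHEA 1. The V1 median stayed above 0 under each alternative, at 0.087 to 0.156, with 6 to 8 of the 8 genes tested above 0, or 9 of 12 without a filter, while the V0 median ran from -0.099 to 0.085. Medians of the cathepsins and the LAMP genes lay within 0.1 of 0 under each alternative, with either sign. Atg4c kept its direction under each alternative.

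Deviations of same-numbered livers from their group means correlated at -0.057, -0.059 and -0.055. Those of differently numbered livers ran from -0.068 to 0.116. Deviations within a group sum to 0, so these values are not independent of each other. Whether the rat numbers of the labels pair the samples was not tested. With the replicate block 539 of all genes and 0 of the 46 were called, and Atg4c had a log2 fold change of 0.28 with an unadjusted p of 0.0582. With 3 livers per group, the intervals given hold the differences that these data leave possible. The cause of these changes was not tested.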
